A study of Arabidopsis thaliana with 108 samples.

Results

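The genes described here are 43 Arabidopsis thaliana genes for proteins of the cytosolic ribosome, 25 of the large (60S) subunit and 18 of the small (40S) subunit, out of 27444 protein-coding genes on the 5 nuclear chromosomes. They were taken from a list of loci, and they fall into 28 protein families, of which 15 had 1 listed gene, 11 had 2 and 2 had 3. Each gene was read over its annotated body plus 1 kb upstream in 46 deposited ChIP-seq peak lists. The comparison set was the 16574 protein-coding genes with an H3K4me3 peak in both Col-0 lists, and 42 of the 43 genes belonged to it. The exception was AT5G39850, which encodes RPS9 (uS4) of the small subunit and had a peak in Col-0 replicate 1 only.

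The study asked how the TELOMERE REPEAT BINDING factors TRB1, TRB2 and TRB3 relate to JMJ14, a demethylase of histone H3 lysine 4 trimethylation (H3K4me3). FLAG-TRB1, FLAG-TRB2 and FLAG-TRB3, each expressed from its own promoter in its own mutant background, gave 4 lists each from floral tissue, and FLAG-JMJ14 under the JMJ14 promoter gave 2. Seedlings of Col-0 and of the trb1/2/3 T-DNA triple mutant gave 2 lists each for H3K4me3 and for H3K27me3, and jmj14-1 seedlings gave 1 for H3K4me3. The third experiment compared fwa, a line carrying an unmethylated and active FWA epiallele, with TRB1-ZF, TRB2-ZF and TRB3-ZF, T2 transgenic plants in fwa whose TRB is fused to FLAG and to the zinc finger ZF108, which binds the FWA promoter. The labels call its tissue floral and the study's methods name leaves. It gave 3 H3K4me3 lists each for fwa and TRB1-ZF, 2 each for TRB2-ZF and TRB3-ZF, and 2 H3K27me3 lists for each of the 4 genotypes, while Myc-JMJ14, under the JMJ14 promoter, gave 5 lists from leaf tissue, in Col-0 and in the TRB-ZF lines. The labels give ages of 2 to 3 weeks for the seedlings and 3 to 4 weeks for the Myc-JMJ14 plants. For the FLAG, fwa and TRB-ZF plants the labels give at least 5 weeks. The study's methods name 4 to 5 weeks for the TRB-ZF histone lists. The FLAG, Myc and seedling histone lists thus come from plants of different ages. Peak names in the FLAG-TRB lists carry line numbers, so the 4 lists of a TRB may come from fewer lines. Nothing in the labels says that replicates were separate plants or cultures.

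Ribosomal protein genes are among the most highly transcribed genes of dividing plant cells, and most families have several near-identical gene copies in Arabidopsis. Their promoters are known for the telo box, a short stretch of the telomere repeat, and for site II elements, which are bound by TCP factors. TRB proteins hold a Myb domain that binds the telomere repeat. H3K4me3 lies at the 5′ end of active genes, and H3K27me3 is a mark of Polycomb repression.

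The promoters of genes at both ends of the range of TRB signal described below are shown first, from 250 bases before the annotated start to 50 transcribed bases, with any telo box AAACCCTA or telomere repeat TTAGGG, on either strand, in capitals. They are RefSeq sequence of the TAIR10.1 build. The highest TRB ranks were on RPS5A (AT3G11940, chr3:3779496-3779795, minus strand), a small subunit gene whose promoter is widely used to drive expression in dividing cells, and the lowest on PGY2 (AT1G33140, chr1:12022975-12023274, plus strand), which encodes RPL9 of the large subunit. Both RPS10 genes (AT5G41520, chr5:16610643-16610942, minus strand, and AT4G25740, chr4:13108778-13109077, minus strand) and both RPS6 genes (AT4G31700, chr4:15347755-15348054, minus strand, and AT5G10360, chr5:3260205-3260504, minus strand) are shown because their copies were among the most unlike in rank.
RPS5A, AT3G11940: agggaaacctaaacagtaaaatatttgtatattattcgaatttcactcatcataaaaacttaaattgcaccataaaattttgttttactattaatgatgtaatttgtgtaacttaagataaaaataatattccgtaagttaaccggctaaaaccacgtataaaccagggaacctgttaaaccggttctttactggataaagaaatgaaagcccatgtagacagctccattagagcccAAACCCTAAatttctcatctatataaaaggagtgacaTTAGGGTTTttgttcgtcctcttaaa
RPL9, AT1G33140: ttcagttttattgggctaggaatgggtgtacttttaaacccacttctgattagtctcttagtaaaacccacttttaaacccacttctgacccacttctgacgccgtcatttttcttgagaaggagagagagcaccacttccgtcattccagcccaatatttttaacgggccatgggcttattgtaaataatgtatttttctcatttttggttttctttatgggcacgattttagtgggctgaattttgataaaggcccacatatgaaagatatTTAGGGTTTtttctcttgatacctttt
RPS10, AT5G41520: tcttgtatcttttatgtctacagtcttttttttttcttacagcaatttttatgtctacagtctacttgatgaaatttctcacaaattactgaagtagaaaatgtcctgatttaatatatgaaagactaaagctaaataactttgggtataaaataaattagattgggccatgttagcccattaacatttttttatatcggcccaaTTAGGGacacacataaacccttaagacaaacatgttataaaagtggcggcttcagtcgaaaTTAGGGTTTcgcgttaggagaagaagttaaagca
RPS10, AT4G25740: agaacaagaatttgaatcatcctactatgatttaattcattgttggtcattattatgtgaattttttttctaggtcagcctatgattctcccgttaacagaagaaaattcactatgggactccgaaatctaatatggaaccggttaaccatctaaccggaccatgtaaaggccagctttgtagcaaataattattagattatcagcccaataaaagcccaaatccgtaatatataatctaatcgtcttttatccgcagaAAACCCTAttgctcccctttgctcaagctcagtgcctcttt
RPS6, AT4G31700: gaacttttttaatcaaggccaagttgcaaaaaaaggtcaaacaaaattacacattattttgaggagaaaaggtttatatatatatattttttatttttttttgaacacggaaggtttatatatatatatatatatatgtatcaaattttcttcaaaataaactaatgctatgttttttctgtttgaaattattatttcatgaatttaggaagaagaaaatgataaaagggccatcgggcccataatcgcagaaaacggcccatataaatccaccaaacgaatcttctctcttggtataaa
RPS6, AT5G10360: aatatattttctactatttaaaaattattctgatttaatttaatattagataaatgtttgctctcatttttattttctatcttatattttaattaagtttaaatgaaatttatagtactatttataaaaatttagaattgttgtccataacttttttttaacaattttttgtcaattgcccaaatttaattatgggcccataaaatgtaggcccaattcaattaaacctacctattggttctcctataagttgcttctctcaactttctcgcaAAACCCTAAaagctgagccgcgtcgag
RPS5A held AAACCCTA beginning at -13 and 25 bp from the start, RPL9 at 24 bp, RPS10 AT5G41520 at 17 bp, RPS10 AT4G25740 at 9 bp and RPS6 AT5G10360 at 23 bp, while RPS6 AT4G31700 held neither motif. The lowest-ranked gene, RPL9, thus carried the same letters close to the place of a site in RPS5A and in RPS10 AT5G41520. RPS6 AT4G31700, also highly ranked, did not carry them in this window. Of the other genes ranked highest, RPL10 AT1G66580 held AAACCCTA at 23 bp, RPS9 AT5G15200 at -9 bp and RPL13 AT3G49010 at -189 and -5 bp.

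All 43 ribosomal protein genes were bound by TRB1, by TRB2 and by TRB3. A gene was called bound where its body or upstream kilobase overlapped a consensus region, a stretch of at least 100 bp lying under peaks of at least 2 replicates. The background among genes with H3K4me3 in both Col-0 lists was 86.9% for TRB1, 61.3% for TRB2 and 44.4% for TRB3, and 42.9% of them were bound by all 3. The other 92 cytosolic ribosomal protein genes were also all bound by each TRB. The 31 nuclear genes for plastid ribosomal proteins, which belong to a ribosome of another origin, were not: 29 were bound by TRB1, 15 by TRB2 and 10 by TRB3. All of 11 genes for translation elongation and ribosome assembly were bound by each TRB, and 3 of them by JMJ14. JMJ14 occupied 5 of the 43 genes, 11.6%, beside a background of 12.8%.

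**Figure D1:**
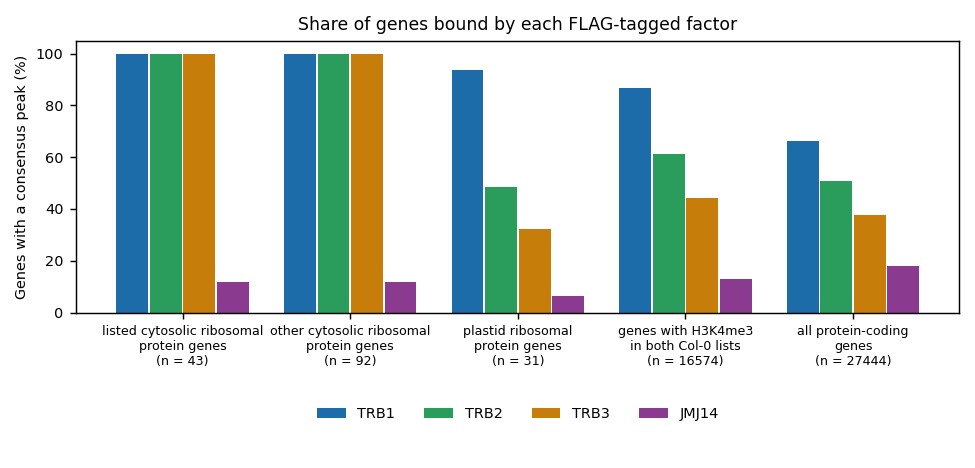
Share of genes (y axis, percent) with a consensus peak of FLAG-TRB1, FLAG-TRB2, FLAG-TRB3 or FLAG-JMJ14 in 5 sets of genes (x axis, with the number of genes). The bars of all 3 TRBs reach 100% in both sets of cytosolic ribosomal protein genes and fall to 48.4% and 32.3% for TRB2 and TRB3 in the plastid set, while the JMJ14 bars stay at or below 17.8%.

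Single lists covered nearly all of the genes as well. The 4 TRB1 lists had a peak on 42, 42, 43 and 43 of the 43 genes, beside backgrounds of 58.6%, 56.2%, 90% and 88.1%. The TRB2 lists had one on 40, 41, 43 and 43, beside 27%, 33.6%, 61.4% and 80.3%, and the TRB3 lists on 33, 42, 43 and 43, beside 13.4%, 39.9%, 35.4% and 69.3%. The background was thus close to the share of these genes in TRB1 replicates 3 and 4 and far below it in the shorter lists. The lowest of the counts came from the shortest list, with 3279 peaks. The lists held 10302 to 22365 peaks for TRB1, 6202 to 22509 for TRB2 and 3279 to 20475 for TRB3, and they carry no read depth. With every list cut to its 3279 strongest peaks, 37, 40 and 38 of the 43 genes were bound by TRB1, TRB2 and TRB3, beside backgrounds of 26%, 17.7% and 16.5%, and 5 were bound by JMJ14, beside 8.58%.

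The peaks on these genes were also among the strongest in each list. To compare lists of unequal length, the fold enrichment over background of each peak was turned into its percentile rank within its list, and a gene took the rank of its strongest peak. The median rank over the genes with a peak was 83.2, 86.8, 93.5 and 92.2 in the 4 TRB1 lists, and the mean of these medians was 88.9 ± 4.82 (SD, n = 4) beside 63.0 ± 5.35 in the comparison set. It was 90.1, 84.0, 94.4 and 96.1 in the TRB2 lists (91.2 ± 5.40 beside 56.9 ± 3.47). It was 78.5, 91.7, 85.7 and 94.2 in the TRB3 lists (87.5 ± 7.02 beside 55.5 ± 3.24). In each of the 12 lists the ribosomal protein genes stood above the comparison set, whose list medians ran from 51.7 to 67.7. The other cytosolic ribosomal protein genes had means of 89.5, 89.0 and 83.4 for TRB1, TRB2 and TRB3, and the plastid set 46.0, 54.7 and 48.6. In the 2 JMJ14 lists the few genes with a peak had median ranks of 69.4 and 53.0, on both sides of the comparison set at 57.0 and 55.5.

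Averaged over the 12 TRB lists, with an absent peak counted as rank 0, the 43 genes ranged from 30.2 to 99.6 with a median of 85.4. The median over the comparison set was 24.5. A mean rank of at least 90 was held by 13 of the 43 genes, 30.2%, and by 2.74% of the comparison set. A peak was present in all 12 lists for 33 genes.

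The top of the order was made of small and large subunit genes. RPS5A (AT3G11940), which encodes uS7 of the small subunit, ranked 99.0, 99.4, 99.8 and 99.6 in the TRB1 lists, 99.9, 99.4, 99.97 and 99.9 in the TRB2 lists and 98.7, 99.6, 99.5 and 99.9 in the TRB3 lists. RPS9 (AT5G15200), a protein of the mRNA entry channel of the small subunit, lay between 98.8 and 99.9 in all 12 lists. RPS10B (AT5G41520) lay between 97.4 and 99.6. The ranges of these 3 genes overlapped, so their order among themselves was not larger than their spread. RPL10C (AT1G66580, also named SAG24), one of 3 genes for the large subunit protein RPL10, lay between 94.3 and 99.8 with a mean of 98.0 ± 1.95 (SD, n = 12). RPL13 (AT3G49010, BBC1) lay between 90.1 and 99.9 with a mean of 97.5 ± 3.24.

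The low end was far more variable. RPL9 (AT1G33140, PGY2), mutations of which change leaf shape in the asymmetric leaves1 background, had no peak in replicates 1 and 2 of any TRB. In replicates 3 and 4 it ranked 61.2 and 39.5 for TRB1, 80.9 and 75.4 for TRB2 and 26.7 and 78.9 for TRB3. RPS10 (AT4G25740) had a peak in 11 lists, with ranks from 4.38 to 68.8 and a mean of 38.2 ± 26.6 (SD, n = 12). Its values in the 12 lists did not overlap those of its copy RPS10B. RPS15A (AT1G07770) had a peak in 9 lists and a mean of 51.9 ± 35.9, RPL28 (AT2G19730) in 11 lists with a mean of 54.0 ± 33.1, and RPL3A (AT1G43170, RP1), which lies next to the peptidyl transferase centre, in all 12 with a mean of 62.6 ± 28.6. These SDs exceed the gaps between the 4 lowest means above RPL9, so the order at the low end is not fixed by these lists. For RPL28 the summit was nearer to the start of a neighbouring gene, the RPL31 gene AT2G19740, in 3 of its 11 lists, and for RPS15A nearer to AT1G07750 in 3 of its 9 lists. The RPL4 gene AT3G09630 was another such case, in 5 of its 12 lists, beside AT3G09620.

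**Figure D2:**
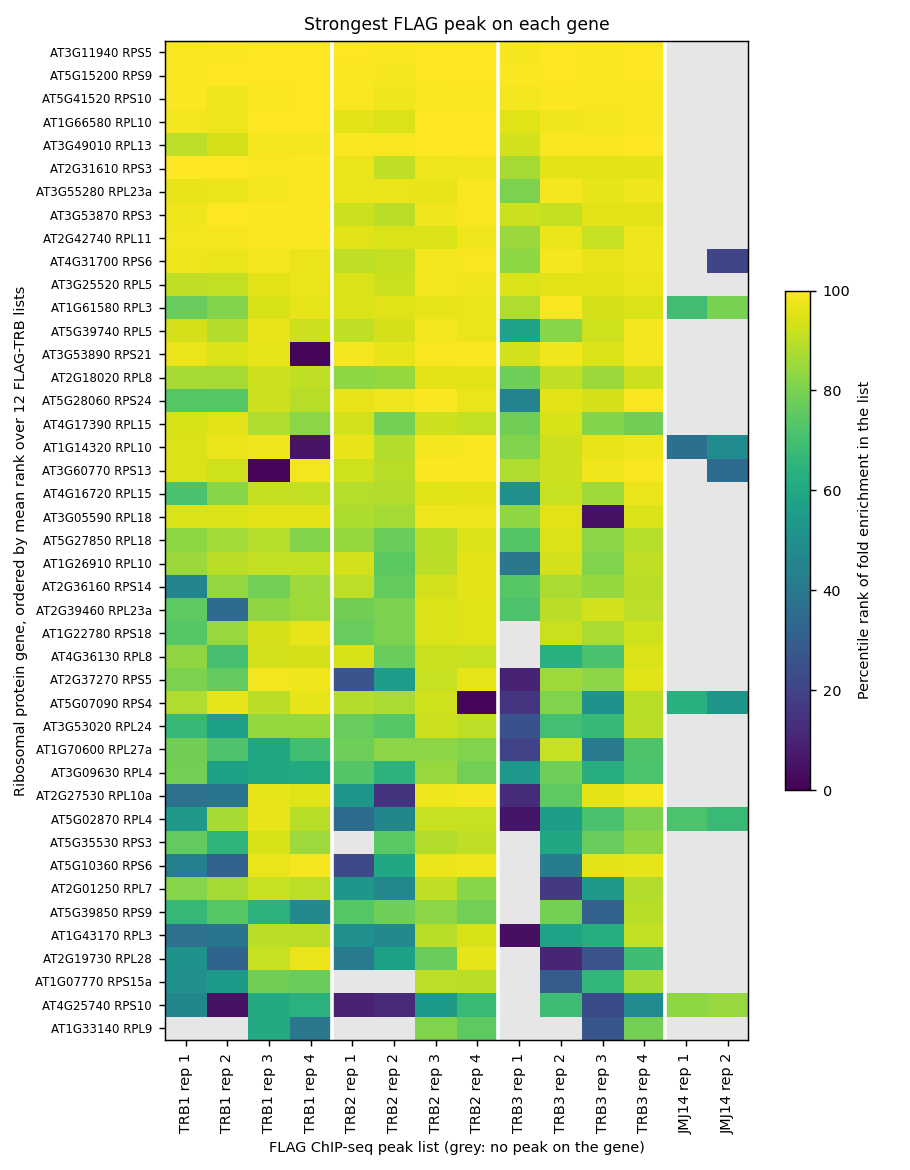
Percentile rank of fold enrichment of the strongest FLAG peak (colour, 0 to 100, grey where no peak was listed) on each of the 43 genes (y axis, ordered by mean rank over the 12 TRB lists) in the 12 TRB and 2 JMJ14 lists (x axis). The upper genes sit near 100 in every TRB list, the lower ones are dark or grey mainly in replicates 1 and 2 of each TRB, and the JMJ14 columns are grey for all but 5 and 7 genes.

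Part of the spread followed the replicate number. Replicates 3 and 4 of each TRB had longer lists than replicates 1 and 2, except that TRB3 replicate 2 was longer than TRB3 replicate 3. The mean rank over the 6 lists of replicates 1 and 2 had a median of 79.3 over the 43 genes, and that over the 6 lists of replicates 3 and 4 a median of 89.7. It was higher in replicates 3 and 4 for 36 genes and lower for 7, a share near the background of 88.7% higher. In the comparison set the median difference was larger, at 18.9 ranks beside 6.18 for the ribosomal protein genes.

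For 8 of the 43 genes, 18.6%, all 6 values of replicates 3 and 4 lay above all 6 of replicates 1 and 2, beside a background of 5.41%. A gene without a peak in any 1 list of replicates 3 and 4 cannot meet this rule. All 43 genes had a peak in each of those lists, while many genes of the comparison set did not, so the shares are not like for like. By size, 10 genes, 23.3%, rose by more than 30 ranks, beside 28.6% of the comparison set. The largest difference was on RPS6B (AT5G10360, EMB3010), one of the genes for the small subunit protein that is phosphorylated downstream of the TOR kinase. It ranked 43.1 and 31.2 in TRB1 replicates 1 and 2 and 97.1 and 98.6 in replicates 3 and 4. For TRB2 it ranked 21.9 and 59.9 and then 97.2 and 98.0, and for TRB3 it was absent and 42.4 and then 96.1 and 96.3. The low and high values of RPS6B thus split by replicate number in each TRB, with no overlap. PGY1 (AT2G27530), a gene for RPL10a at the L1 stalk, had a mean of 38.6 in replicates 1 and 2 and of 96.9 in replicates 3 and 4. RPL9 went from 0 to 60.4 and RPS15A from 22.4 to 81.4. The labels do not say how the replicate sets differ, and the part of list length in these differences was not tested.

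**Figure D3:**
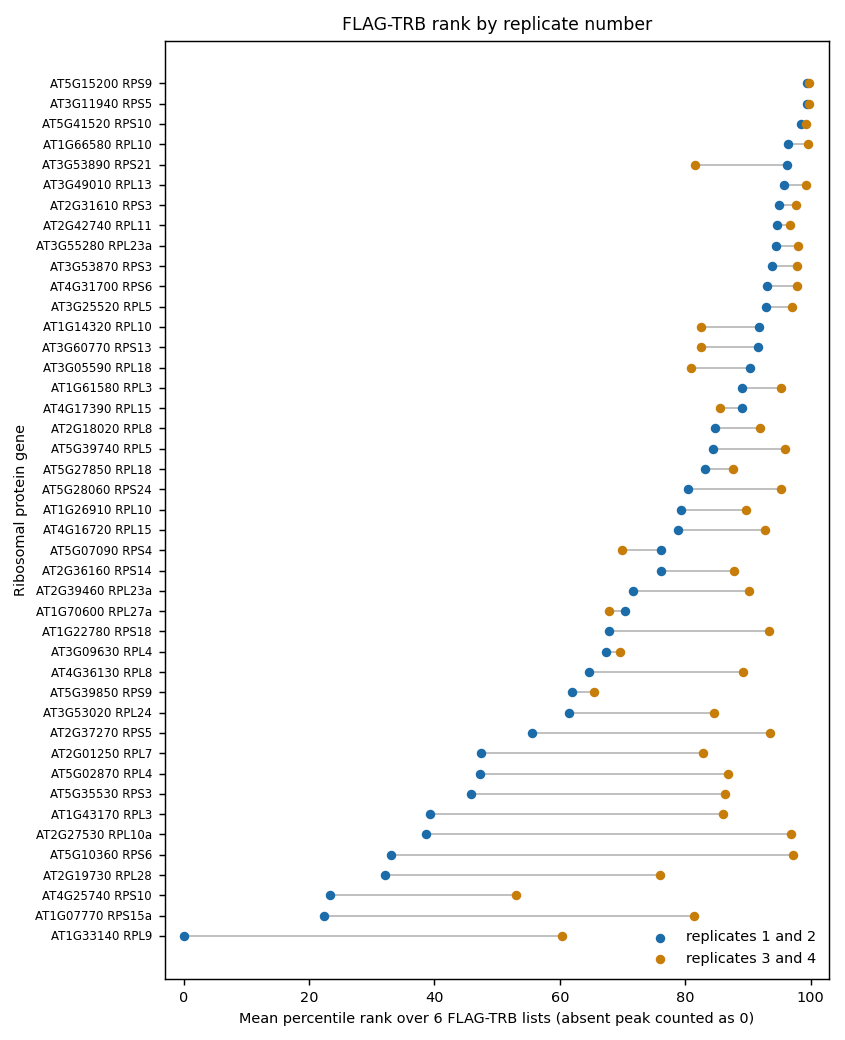
Mean percentile rank over the 6 FLAG-TRB lists of replicates 1 and 2 (blue) and the 6 lists of replicates 3 and 4 (orange) for each of the 43 genes (y axis), an absent peak counted as 0 (x axis, percentile rank). RPS5A and RPS9 AT5G15200 show no visible shift, whereas RPS6B moves from 33.1 to 97.2 and RPL10a AT2G27530 from 38.6 to 96.9.

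A few low values stood alone. RPS21 (AT3G53890) ranked 1.54 in TRB1 replicate 4 and 93.3 to 99.5 in the other 11 lists. The interval listed there was 1068 bp wide, covered the start site and carried a fold enrichment of 1.52. RPS13 (AT3G60770) in TRB1 replicate 3, RPL10A (AT1G14320, SAC52) in TRB1 replicate 4 and RPL18 (AT3G05590) in TRB3 replicate 3 had the same form, with a listed fold of at most 1.65 for an interval over the start and ranks of at least 81.0 in all their other lists. For these 4 genes the mean rank is therefore pulled down by 1 list each.

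Copies of one protein differed in TRB signal. Within the 13 families with more than 1 listed gene, the difference between the highest and the lowest mean rank ran from 0.282 for RPL18 to 60.7 for RPS10. The RPL18 value rested on TRB3 replicate 3, since AT3G05590 stood above AT5G27850 in the other 11 lists, by 7.41 ranks on average. RPS10B (AT5G41520) stood above AT4G25740 in 12 of 12 lists, with means of 98.9 and 38.2. The RPS9 gene AT5G15200 stood above AT5G39850 in 12 of 12 lists, with means of 99.6 and 63.7. RPS6A (AT4G31700) stood above RPS6B in 11 of 12, with means of 95.4 and 65.1, and the exception lay in the replicates in which RPS6B was high. RPS5A stood above RPS5B (AT2G37270), RPL3B (AT1G61580) above RPL3A and the RPS3 gene AT2G31610 above AT5G35530 in 12 of 12 lists each, by 25.02, 29.5 and 30.2 ranks. The RPL15 and RPL4 pairs differed by at most 1.59 ranks, less than the SD of any of their members over the 12 lists. The authors kept only reads with a single matching site and no mismatch, so stretches identical between copies give no reads in these lists, and the part of this in the differences was not tested.

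TRB summits lay just inside the transcribed region. The median summit over the 43 genes was 45, 44.5, 38 and 44 bp after the annotated start in the TRB1 lists, 38.5, 31, 43 and 32 bp in the TRB2 lists and 49, 36, 31 and 45 bp in the TRB3 lists. Means of these medians were 42.9 ± 3.28, 36.1 ± 5.66 and 40.2 ± 8.22 bp (SD, n = 4 each), and the 3 ranges overlapped. In the comparison set the list medians were close by, between 5 and 46.5 bp, but the summits were more scattered: 48.6% to 59.6% of them lay within 200 bp of the start, beside 83.7% to 95.1% for the ribosomal protein genes.

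**Figure D4:**
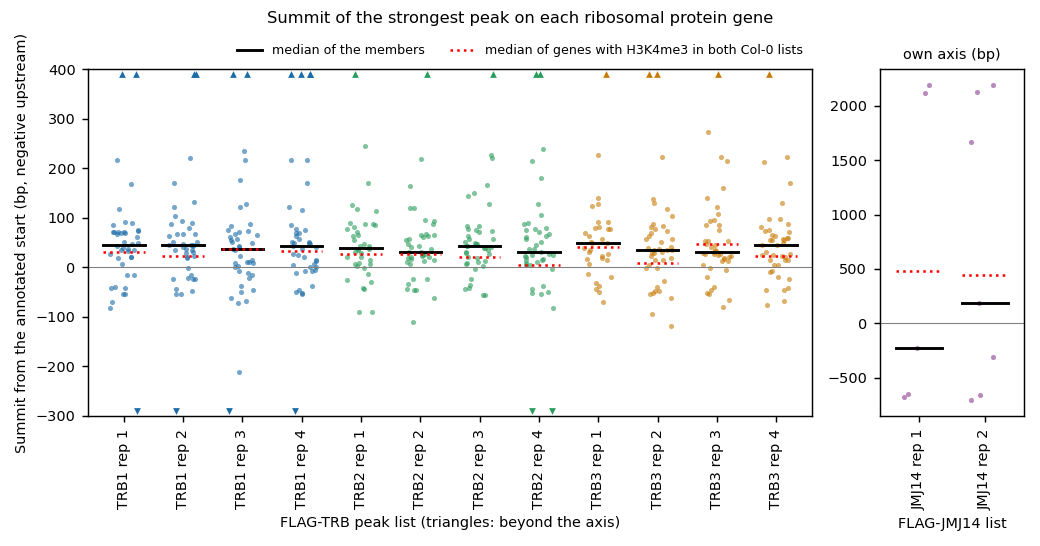
Distance in bp of the summit of the strongest peak from the annotated start (y axis, negative upstream) for each of the 43 genes with a peak (points) in the 12 TRB lists (left) and, on an axis of its own, the 2 JMJ14 lists (right). Black bars, the medians of these genes, lie between 31 and 49 bp in the TRB lists, red dotted bars are the medians of the comparison set, and triangles mark summits beyond the axis.

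RPS5A showed how narrow the position was, with its 12 summits between -6 and 38 bp. Those of RPS10B lay between 15 and 36 bp, those of RPS9 AT5G15200 between 17 and 59 bp and those of RPS6A between 46 and 91 bp. RPL13 was placed upstream in all 12 lists, between -110 and -24 bp. RPS10 AT4G25740 was upstream as well, between -119 and -7 bp in its 11 lists, so the RPS10 copies differed in the position of the summit as well as in rank.

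The telo box was found in 21 of the 43 promoters, 48.8%, and in 6.23% of the comparison set and 6.22% of all protein-coding genes. The promoters searched were the 300 bases shown above, on both strands. AAACCCTA on the other strand reads TAGGGTTT, and in AAACCCTAA it shares bases with TTAGGG on the opposite strand. TTAGGG was found in 23 promoters, 53.5%, beside 12.4% and 12.3%, and either motif in 27, 62.8%, beside 14.6%. The 25 AAACCCTA sites began between -198 and 34 bp from the start with a median of 10 bp, and 15 of them began at or after it. Of the other cytosolic ribosomal protein genes 46 of 92 held AAACCCTA, and of the plastid set 4 of 31.

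Site II letters were more frequent still. TGGGCC stood in 34 promoters, 79.1%, beside 21.3% of the comparison set, TGGGCT in 27, 62.8%, beside 18.4%, and one or the other in 38, 88.4%, beside 28.4%. The motif of NAC050, NAC052 and JMJ14 sites stood in 1 promoter, that of RPS5B (AT2G37270), beside 0.543% of the comparison set. RPS5B had no FLAG-JMJ14 peak.

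The strongest TRB summit lay close to a telomere-like motif. Its distance to the nearest AAACCCTA or TTAGGG anywhere on the chromosome had medians of 13.5 to 25 bp over the ribosomal protein genes in the 12 lists, and 88.1% to 97.0% of the summits had one within 100 bp. In the comparison set the list medians ran from 26.5 to 368.5 bp and the share from 31.7% to 78.6%, with the shortest distance in the shortest list. The share was higher on the ribosomal protein genes in every list. All 5 genes with the highest mean ranks held AAACCCTA in the promoter window, and so did the lowest. The mean rank over the 12 lists had a median of 87.1 in the 21 genes with it, from 30.2 to 99.6, and of 82.7 in the 22 without, from 51.9 to 96.3, and the ranges overlapped over most of their length. It was 92.4 in the 4 genes with at least 2 such sites, from 82.0 to 99.6, and 79.0 in the 16 with neither AAACCCTA nor TTAGGG. Which genes count as lacking a motif depends on the window. From 500 bases before to 100 after the start, 37 of the 43 genes, 86.0%, held either motif, beside 25.9% of the comparison set.

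JMJ14 lay on a share of these genes near the background. On the 5 genes with a consensus region its summits lay at other places than those of the TRBs. The 2 lists had a peak on 5 and 7 of the 43 genes, beside backgrounds of 13.8% and 15.5%. The 5 genes under a FLAG-JMJ14 consensus region were RPL4 (AT5G02870), RPL3B (AT1G61580), RPL10A (AT1G14320, SAC52), RPS10 (AT4G25740) and RPS4 (AT5G07090). On RPL4 the summits lay 2189 and 2188 bp after the start, 64 and 63 bp past the gene's end, and on RPL3B 2118 and 2125 bp after the start. On the other 3 they lay upstream, at -228 and -312 bp for RPL10A, -677 and -654 bp for RPS10 and -645 and -705 bp for RPS4. None of the 5 genes had its JMJ14 summit within 200 bp of the start in either list. Among all of the 43 genes with a JMJ14 peak, the share within 200 bp ran from 0% to 14.3% over the 2 lists. In the comparison set it ran from 7.11% to 7.19%. RPS10, with ranks of 82.8 and 84.7, had the highest JMJ14 ranks of the 43 genes, and at the same time the second lowest mean TRB rank. Over the gene body alone only 2 of the 5 were bound.

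The Myc lists were short, and 1 of the 5 held most of the peaks on these genes. The library labelled Myc-JMJ14 in Col-0 had a peak on 1 of the 43 genes, beside a background of 1.13%, and those labelled TRB2-ZF and TRB3-ZF on 2 each, beside 2.33% and 4.73%. Those labelled TRB1-ZF had one on 3 and on 15, beside 2.02% and 4.82%. The 15 genes were 34.9% of the 43, and 27 of the other 92 cytosolic ribosomal protein genes had a peak in that list too. Under the deposited names, 4 of the 5 lists carried another background than their label, so no direction between backgrounds was drawn. Only 5 genes had a peak in at least 2 Myc lists. RPL13 was in 4, with summits at 2037, 1975, 2033 and 2023 bp, beside a gene length of 1993 bp, and RPS18A (AT1G22780, PFL), RPL4 AT5G02870, RPS13 and RPL3B were in 2 each. RPL4 and RPL3B were under FLAG-JMJ14 consensus regions too, at 2163 and 2219 bp and at 2128 and 2165 bp in the Myc lists. Every one of these Myc peaks had a low enrichment, at most 3.02-fold.

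H3K27me3 touched 9 of the 43 genes in at least 1 of 11 distinct lists, 20.9%, beside a background of 26%, and nearly always upstream of the gene. Over the gene body alone it was 1 gene, beside a background of 13%. That gene was RPS9 AT5G39850, in the list of Col-0 replicate 2 only, at rank 1.21. The lists labelled TRB1-ZF replicate 2 and TRB2-ZF replicate 2 were identical in all 11610 peaks and were counted once, since the line they came from is not known.

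The genes with H3K27me3 in all 11 lists were RPS13 (AT3G60770), RPL3B (AT1G61580), RPL13 (AT3G49010) and RPS4 (AT5G07090). None of them had a peak over the gene body in any list. Over the ribosomal protein genes with a peak, the list medians of the H3K27me3 summit ran from -1573 to -877 bp from the start. Some summits thus lay outside the upstream kilobase. The covered lengths below count only the bases inside it, so they do not measure the whole peak. On RPL13 the covered length was 830 and 914 bp for Col-0, 294 and 536 bp for trb1/2/3, 784 and 771 bp in fwa, 795 bp in TRB1-ZF replicate 1, 639 bp in TRB2-ZF replicate 1, 781 bp in the identical list and 278 and 265 bp in TRB3-ZF. The trb1/2/3 and TRB3-ZF values lay below those of their controls without overlap. RPS13, with 710 and 763 bp for Col-0 and 582 and 509 bp for trb1/2/3, RPL3B, with 727 and 765 bp and then 571 and 492 bp, and RPS4, with 590 and 645 bp and then 559 and 550 bp, were lower in trb1/2/3 too. With RPS6A these were 5 of the 9 genes, and 53.3% of all genes covered in any of those 4 lists lay below in the same way, so the count was near the background. Against fwa, TRB3-ZF lay below without overlap for 3 of 7 genes, RPL13, RPL3B and RPS4, beside a background of 22.6%, and above for 0, beside 19.6%. H3K27me3 was described without a test. RPS6A (AT4G31700) had the mark upstream in every list except the 2 of trb1/2/3, with 421 and 508 bp in Col-0. RPL11 (AT2G42740), the partner of RPL5 in 5S rRNA binding, showed the reverse, with 53 and 174 bp in trb1/2/3 and no peak in any other list, the 1 gene of 9 that lay above Col-0 without overlap, beside a background of 12.6%. RPL10a (AT2G27530) was covered in 10 lists and RPL8 (AT2G18020) in 6.

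H3K4me3 marked the ribosomal protein genes in nearly every list, downstream of the TRB summits. All 43 genes had a peak in 14 of the 15 lists and 42 in Col-0 replicate 2. Summits lay at medians of 250 to 322 bp after the start, beside 314 to 335 bp in the comparison set. The genes were shorter than those of the comparison set, with a median annotated length of 1698 bp beside 2427 bp.

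Covered length, the number of bases of a gene and its upstream kilobase under H3K4me3 peaks, did not differ by test in any of the comparisons. In simulated data the seedling fit recovered 0 of 100 genes changed by 400 bp. Its lack of calls therefore cannot tell whether changes of that size were present. In seedlings its median over the 43 genes was 931 and 612 bp in the Col-0 lists, 1006 and 759 bp in the trb1/2/3 lists and 943 bp in the single jmj14-1 list. For the comparison set these medians were 908 and 705 bp (Col-0), 945 and 760 bp (trb1/2/3) and 930 bp (jmj14-1). Replicate 2 was lower than replicate 1 in both genotypes, and the groups overlapped.

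A limma fit across 18409 genes called 0 of the 43 genes between trb1/2/3 and Col-0 at an adjusted p (Benjamini-Hochberg) of 0.05, beside a background of 0%. At an unadjusted p of 0.05 it was 1 of 43, and 980 genes of all. The difference was positive for 39 of the 43 genes, with a median of 110 bp, and for 65.2% of the comparison set, with a median of 36.5 bp. With each list centred on its median it was 64 bp (31 genes positive), and with quantile normalization 48.75 bp (30 genes). Without Col-0 replicate 2 the median over the ribosomal protein genes was -41.5 bp, and without trb1/2/3 replicate 1 it was 11 bp. Replicate 2 was the lower list of both genotypes, so leaving out 1 list sets unlike replicate numbers against each other. With the replicate number as a block the median stayed at 110 bp, with 39 genes positive. The 2 groups did not overlap, with trb1/2/3 above, for 5 genes, beside a background of 15.9%, and with trb1/2/3 below for 0, beside 2.29%.

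The largest difference was on RPL10C (AT1G66580), with 1188 and 944 bp in trb1/2/3 and 663 and 403 bp in Col-0, a gain of 533 ± 173 bp (SE, limma adjusted p = 0.539). Its trb1/2/3 values were above those of the other 13 lists, where it covered 403 to 750 bp. Most of those lists are of fwa and the TRB-ZF lines, from another experiment and older plants. The percentile rank of its H3K4me3 peak overlapped between trb1/2/3 and Col-0, with means of 51.1 and 37.6. RPS4 (AT5G07090) had 859 and 1092 bp beside 756 and 316 bp (439.5 ± 194 bp, limma adjusted p = 0.996). At the other end the RPS3 gene AT3G53870, with 1671 and 1372 bp beside 1740 and 1467 bp, and the RPL15 gene AT4G17390, with 1695 and 1510 bp beside 1846 and 1465 bp, fell within their replicate spread. On RPS9 AT5G39850, which lacked a peak in Col-0 replicate 2, Col-0 covered 576 and 0 bp, trb1/2/3 664 and 460 bp and jmj14-1 563 bp.

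**Figure D5:**
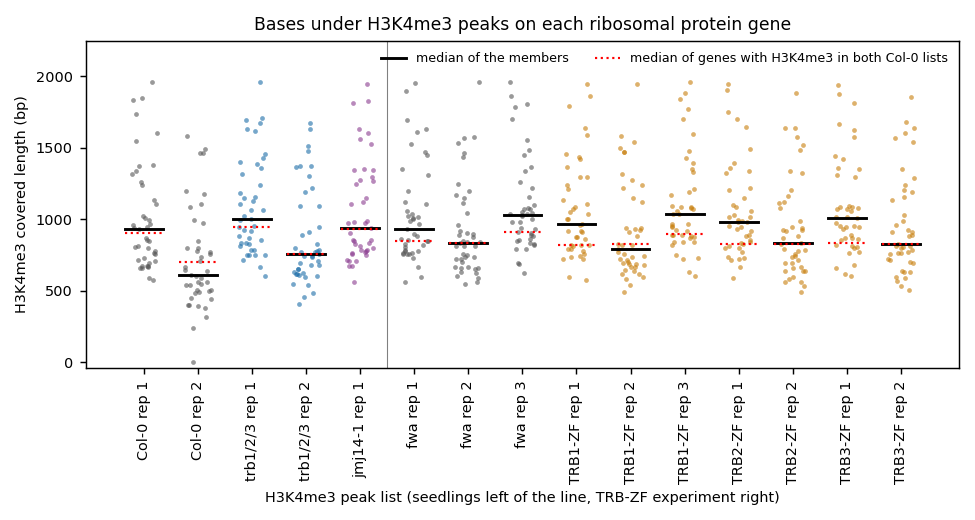
Bases under H3K4me3 peaks (y axis, bp) on each of the 43 genes (points) in the 15 lists (x axis), with the median of these genes in black and that of the comparison set as a red dotted bar. Replicate 2 is the lowest list of every genotype with more than 1 list, from 612 bp in Col-0 to 838 bp in fwa, and the genotypes overlap.

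In the TRB-ZF experiment the members' medians were 936, 838 and 1028 bp in fwa, 969, 794 and 1036 bp in TRB1-ZF, 985 and 833 bp in TRB2-ZF and 1010 and 831 bp in TRB3-ZF. The groups overlapped, and in each genotype replicate 2 was the lowest. All 3 comparisons share the fwa lists. The limma fits across 18971 genes called 0 of the 43 genes in TRB1-ZF, TRB2-ZF and TRB3-ZF against fwa, beside backgrounds of 0.0158%, 0.0264% and 0.0105%. At an unadjusted p of 0.05 it was also 0 of 43 in each, and 264, 458 and 507 genes of all. In simulated data, with the changes placed in TRB1-ZF, the fit recovered 5 of 100 genes changed by 200 bp and 53 of 100 changed by 400 bp. The lack of calls therefore cannot tell whether changes of about 200 bp were present. Median differences over the ribosomal protein genes were 10, -15.8 and 3 bp, beside -18, -36 and -32.5 bp in the comparison set. Leaving out 1 list turned the sign in each comparison, with ranges of -42.8 to 64.7 bp, -88.3 to 41.3 bp and -63.3 to 50.7 bp. With the replicate number as a block the TRB2-ZF median turned to 24.5 bp (26 genes positive against 17). The TRB3-ZF median rose to 36.3 bp, so no direction was drawn.

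Most genes overlapped between genotypes. In TRB2-ZF 1 gene lay above fwa without overlap and 2 below, beside backgrounds of 1.3% and 13%, in TRB3-ZF 2 above and 1 below, beside 1.52% and 11.1%, and in TRB1-ZF 0 either way, beside 0.727% and 2.85%. Those below were RPS13 and the RPL27a gene AT1G70600 in TRB2-ZF (-83.2 and -43.2 bp) and AT1G70600 in TRB3-ZF (-93.7 bp), each with a limma adjusted p of 1. Those above in TRB3-ZF were RPL9 (95.3 bp) and RPL10A. RPS15A (AT1G07770), a small subunit gene, covered 761, 1048 and 1157 bp in fwa, 724, 1125 and 871 bp in TRB1-ZF and 1061 and 1353 bp in TRB3-ZF, so the values overlapped in both comparisons, with a difference of 218 bp in TRB3-ZF (limma adjusted p = 1). The RPL15 gene AT4G16720 had 944 and 928 bp in TRB2-ZF, above the 776, 734 and 910 bp of fwa without overlap (129 bp, limma adjusted p = 1). RPL5B (AT5G39740), the partner of 5S rRNA in the large subunit, had 725 and 495 bp in TRB2-ZF and 770 and 507 bp in TRB3-ZF beside 826, 650 and 828 bp in fwa. Its differences of -158 and -129.5 bp had adjusted p of 1 by limma. The other genes with the largest differences were RPS6A (-86.3 bp in TRB1-ZF and -120.5 bp in TRB2-ZF), RPS14 AT2G36160 (116 bp) and RPL9 (68.7 bp) in TRB1-ZF, RPL4 AT5G02870 (99.2 bp) in TRB2-ZF, and RPL10a (-118 bp) and RPL10A (109 bp) in TRB3-ZF.

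The percentile rank of the H3K4me3 peak within its list uses the height of a peak in place of its width. This measure was added after the covered lengths had been seen. Its median over the 43 genes was 61.5 and 53.8 in Col-0, 74.8 and 68.1 in trb1/2/3 and 58.8 in jmj14-1, while the comparison set stayed between 57.8 and 62.7 in all 15 lists. Both trb1/2/3 medians were above both Col-0 medians. The limma fit on ranks called 0 of 42 genes, beside a background of 0%. The median difference was 12.8 ranks, positive for 34 of 42 genes, beside 2.07 ranks and 55.8% in the comparison set. For 12 of the 42 genes trb1/2/3 lay above Col-0 without overlap, beside a background of 20.5%, and for 2 below, beside 14.4%. Without Col-0 replicate 2 the median difference was -1.01 ranks, and without Col-0 replicate 1 it was 19.3 ranks.

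In the TRB-ZF experiment the rank followed the replicate number more than the genotype. It was 78.6, 65.4 and 83.5 in fwa, 87.1, 61.9 and 81.9 in TRB1-ZF, 87.3 and 62.9 in TRB2-ZF and 83.4 and 57.9 in TRB3-ZF. Replicate 2 was the lowest in every genotype, and the genotypes overlapped. The fits called 0 of the 43 genes in each comparison, beside backgrounds of 0%, with median differences between -1.90 and 2.15 ranks.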

How the data were processed

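The deposited files are MACS2 peak lists. Per the submitters' processing notes and the study's methods, the authors aligned reads with Bowtie2 (the notes name version 2.1.0, the methods a later one), kept uniquely mapping reads and called peaks for each library with MACS2 2.1.1; sites with peaks in several Col-0 control replicates were filtered. The control used for each call is not given in the sources used here. The deposited columns used were the fold enrichment (a ratio), the −log10 q and the summit offset. Peak lists carry no read depth, so no counting interval was given.

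Overlapping rows of 1 interval were merged to the row of highest fold and organelle rows were dropped. Genes and promoters came from the RefSeq annotation of TAIR10.1, whose nuclear sequence is that of TAIR10. A gene's span was its body plus 1000 bp upstream, and an overlap of 1 bp counted. Consensus regions lay under peaks of at least 2 replicates, were joined over gaps of up to 100 bp and spanned at least 100 bp. Percentile ranks run from 0 to 100 within a list. Summits were counted from 0 at the annotated start. Covered lengths and H3K4me3 ranks were fitted with limma 3.58.1 (R 4.3.3, trended variance), Benjamini-Hochberg adjusted over all genes fitted, with a threshold of 0.05; other steps used Python 3.11.15 and numpy 2.4.6. On simulated data 0 of 100 genes changed by 400 bp were recovered in the seedling comparison (18371 genes) and 53% in the TRB-ZF comparison (18971 genes), so the seedling fit could not call changes of that size. Of 100 genes changed by 200 bp, 5 were recovered in the TRB-ZF comparison.

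The 43 genes and the other gene lists were chosen with earlier results of these data known. Of 99 other cytosolic ribosomal protein genes listed, 92 were kept. By rule, 29 genes were named: those with the 5 highest and 5 lowest mean TRB ranks, those with JMJ14 or at least 2 Myc lists, those with H3K27me3 or lacking H3K4me3 in a Col-0 list, the largest H3K4me3 differences, and the copies of the 3 families that differed most and the 1 that differed least. Others were named after their values were seen, as were the replicate-set comparison, the single low lists and the H3K4me3 ranks. In the TRB-ZF experiment, same-numbered H3K4me3 lists of different genotypes deviated together (13 pairs, r from 0.680 to 0.891). Replicates 1 and 3 of different genotypes did so as well (r from 0.591 to 0.760), while replicate 2 went against both (r from -0.891 to -0.703). These values set replicate 2 apart, but they do not show that the numbers 1 and 3 pair the lists. In a group of 2 lists the deviations mirror each other, so some of these values repeat. Alternatives varied the q threshold, the span, the overlap, the replicates required, list length, the replicate block and each replicate in turn. The deposited bisulphite PCR files were not used.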

Additional observations from a re-analysis of the deposited data

Results flagged for a closer look

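Groups of 4 lists of the same TRB were searched for a list far from the other 3, over the list medians and counts and the 5 highest and 5 lowest ranked genes. Of 39 such groups 4 held one, and chance alone would give about 1 in 20. FLAG-TRB3 replicate 1 had a peak on 33 of the 43 genes where the other TRB3 lists had one on 42 or 43, and it was the shortest list, with 3279 peaks. In the same list RPL13 (AT3G49010) ranked 93.2, below 99.1 to 99.7 in the others. RPS10B (AT5G41520) ranked 97.4 in TRB1 replicate 2, below 99.4 to 99.6. The median summit of the genes was 38 bp from the start in TRB1 replicate 3 and 44 to 45 bp in the others.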

How the results depend on the processing

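Of 628 alternative values, 304 with a replicate left out and 292 of another kind were counted as unmoved. This meant a move of less than the replicate spread or, for counts, of at most 1.5 times. For differences of single genes it meant only the same sign and no call, whatever the size of the move. For the median H3K4me3 differences a turn of sign did not count in itself, and 21 of 116 alternatives turned it. In every H3K4me3 comparison 0 of the 43 genes was called under any alternative. Requiring a −log10 q of at least 10 lowered the mean of the list median ranks to 75.7 for TRB1, 79.6 for TRB2, 73.1 for TRB3 and 40.9 for JMJ14, put the JMJ14 summit at 1201 bp, left 0 genes in at least 2 Myc lists, gave a median H3K4me3 rank difference in trb1/2/3 of 17.99 and turned RPS15A (AT1G07770) in TRB1-ZF to 97 bp. Ranking by −log10 q gave JMJ14 73.3, and the summit nearest the start gave TRB1 38.9 bp. Over the gene body alone JMJ14 was on 2 genes and H3K27me3 on 1, and AT3G53870 (3.5 bp), AT4G17390 (8.5 bp) and AT2G36160 (-27.7 bp in TRB1-ZF) turned. In the 500 bases before to 100 after the start 32 genes held AAACCCTA, beside 11.96% of the comparison set. The cause was not tested.

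Leaving out 1 replicate at a time gave median differences of -1.01 to 19.3 ranks and -41.5 to 244 bp in trb1/2/3, and -42.8 to 64.7, -88.3 to 41.3 and -63.3 to 50.7 bp in TRB1-ZF, TRB2-ZF and TRB3-ZF. Single genes that turned were AT3G53870 (-231.5 to 67.5 bp) and AT4G17390 (-243.5 to 137.5 bp) in trb1/2/3, AT1G07770 in TRB1-ZF (-196 to 9.33 bp), AT4G31700 in TRB2-ZF (-259 to 18 bp) and AT5G39740 in TRB3-ZF (-261 to 2 bp). With a replicate block the median covered-length differences were 110, 10, 24.5 and 36.3 bp in trb1/2/3, TRB1-ZF, TRB2-ZF (turned from -15.8) and TRB3-ZF, and no call on the 43 genes changed. Same-numbered seedling lists had r = 0.480. With 2 lists per genotype the deviations mirror each other, so both pairs give this same value by construction. In seedlings the block moved the count of all genes called on H3K4me3 ranks from 0 to 197. Over the alternatives the genes called on covered length numbered 0 to 320 in trb1/2/3 (0 as reported), 0 to 10 in TRB1-ZF (3), 0 to 9 in TRB2-ZF (5) and 0 to 10 in TRB3-ZF (2).

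The lists give no depth, so what depth limits could not be assessed.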
